A study of Mus musculus with 6 samples.

Results

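The 9 genes described here mark the B lymphocyte lineage and were chosen by name as pro-B, pre-B and mature B cell markers: Vpreb1, Vpreb3, Igll1, Cd79a, Cd79b, Pax5, Ebf1, Ms4a1 and Blnk. Each was held by 1 locus in all 6 libraries, so the 9 were followed across the series out of 23746 gene loci. The 9 and the other lists used below were chosen with earlier results of these data known. Counts of calls among them are therefore a description. Bone marrow came from C57BL/6 mice of 12 weeks that were KO (Diap1 -/-), Het (Diap1 +/-) or WT for Diap1, the gene of a formin that assembles actin filaments. For each genotype the marrow of 4 mice was combined into 1 pool. Magnetic beads took out the cells carrying both Gr1 and Mac1, antigens of granulocytes and monocytes (the Gr1+Mac1+ fraction), and the cells left over were depleted to uncommitted progenitors (the Lin- fraction). Each of the 6 groups (KO, Het and WT in either fraction) is 1 library of total RNA, so there are no replicates within a group. The part of Diap1 that the KO allele lacks is not stated in the labels.

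B cells arise in the bone marrow from lymphoid progenitors. Ebf1 and then Pax5, both transcription factors, commit a progenitor to the lineage. The cell rearranges its immunoglobulin heavy chain genes first and shows the heavy chain at its surface with a surrogate light chain made of the Vpreb1 and Igll1 proteins, which together form the pre-B cell receptor. Cd79a and Cd79b are the signalling chains of this receptor and of the later B cell receptor, and Blnk is the adaptor that couples the receptor's kinases to downstream enzymes. Ms4a1, known as CD20, marks B cells from the later marrow stages onward. Blnk is also known from macrophages, so it is not restricted to B cells.

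On mm10, 1-based, the files place Vpreb1 at chr16:16868401-16869255 and Igll1 at chr16:16860671-16863985, both on the minus strand and 4415 bases apart. Cd79a lies at chr7:24897511-24902197, Cd79b at chr11:106311341-106314529, Vpreb3 at chr10:75948312-75949646 and Pax5 at chr4:44531506-44710440. Ebf1 is at chr11:44618134-45005172, Ms4a1 at chr19:11250603-11266151 and Blnk at chr19:40928927-40994535. All 9 are annotated as protein-coding in GENCODE. The loci of Pax5, Ebf1 and Ms4a1 overlap annotated antisense genes, and the counting is not stated to use strand, so fragments of the antisense genes could be included there. Vpreb1 has a close copy, Vpreb2, whose transcript matches it at 739 of 759 aligned bases (97.4%), so the level of Vpreb1 is uncertain to the extent that fragments were split between them.

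The upstream sequences of 4 members are shown as those that hold a motif searched for and lie clear of the gene's locus in the files. Each is the 250 bases before the RefSeq start (GRCm38.p6, the assembly called mm10), 5′ to 3′ on the strand of the gene. GENCODE draws the genes of Cd79a, Vpreb1 and Vpreb3 further upstream, so that these 3 windows overlap its gene spans. Capitals mark matches on either strand to CAGGTG (an E-box of the kind bound by the E2A factors), ATTTGCAT (the octamer of immunoglobulin promoters) or CCCNNGGG (the core of the EBF motif), none of which overlapped another.
Cd79a, plus strand, chr7:24897247-24897496: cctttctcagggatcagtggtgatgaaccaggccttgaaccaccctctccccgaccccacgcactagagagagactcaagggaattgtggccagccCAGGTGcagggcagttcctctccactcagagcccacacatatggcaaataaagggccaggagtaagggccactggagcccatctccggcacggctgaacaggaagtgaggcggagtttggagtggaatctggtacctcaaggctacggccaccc
Vpreb1, minus strand, chr16:16869256-16869505: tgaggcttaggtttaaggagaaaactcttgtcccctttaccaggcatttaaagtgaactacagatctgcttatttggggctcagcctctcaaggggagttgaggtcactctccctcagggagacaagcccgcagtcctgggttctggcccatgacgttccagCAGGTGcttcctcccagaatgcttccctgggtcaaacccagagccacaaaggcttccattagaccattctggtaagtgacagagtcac
Igll1, minus strand, chr16:16863986-16864235: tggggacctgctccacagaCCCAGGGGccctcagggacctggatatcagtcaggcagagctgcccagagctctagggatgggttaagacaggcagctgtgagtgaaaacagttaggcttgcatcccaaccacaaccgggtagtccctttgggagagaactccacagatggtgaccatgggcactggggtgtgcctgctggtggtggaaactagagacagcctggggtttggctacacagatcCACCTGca
Vpreb3, plus strand, chr10:75948050-75948299: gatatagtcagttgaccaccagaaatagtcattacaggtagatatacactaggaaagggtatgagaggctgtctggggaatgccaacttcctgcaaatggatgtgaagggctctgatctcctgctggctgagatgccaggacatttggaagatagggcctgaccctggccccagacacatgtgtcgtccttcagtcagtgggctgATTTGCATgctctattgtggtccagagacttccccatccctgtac
In these windows the E-box stood 149 to 154 bases before the start of Cd79a, 83 to 88 bases before that of Vpreb1 and 3 to 8 bases before that of Igll1. The octamer stood 38 to 45 bases before the start of Vpreb3. RefSeq gave 8 such windows for 7 of the 9 members, 2 of them for Ebf1. None of the 3 motifs was found in the Pax5 window or in either Ebf1 window, and the Blnk window, which overlaps its locus, is not shown. The E-box was in 4 of the 8 windows (Blnk, Cd79a, Igll1 and Vpreb1) and in 17.2% of all 32851 windows, the octamer in 2 (Blnk and Vpreb3) and in 1.6% of all, and the EBF core in 1 (Igll1) and in 11.8% of all. The motifs were chosen after the sequences had been seen, so these shares are a description.

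The files give FPKM, a fragment number scaled to the length of the transcript and to the mapped fragments of the library, and bound each value below and above. The fragment numbers given here are an estimate, read from the bounds on the assumption, which the files do not state, that they follow the square root of a fragment number. Of the 54 member values 50 came out whole within 0.05 under this reading. It is not certain for every gene: Itgam came out at 0.997 fragments in KO and 38.03 in WT Lin- cells, although its FPKM was higher in KO (1.31) than in WT (0.640). Diap1 was at an FPKM of 4.07 in KO, 34.1 in Het and 57.1 in WT Gr1+Mac1+ cells, and at 6.07 in KO, 24.2 in Het and 36.0 in WT Lin- cells, which follows the labels. The Mac1 gene Itgam was at 293 to 311 in the Gr1+Mac1+ libraries, against 0.640 to 16.9 in the Lin- libraries, and the progenitor gene Kit was at 14.9 to 15.7 in the Gr1+Mac1+ libraries, against 66.4 to 84.7 in the Lin- libraries. The Het Lin- library stood apart from the other Lin- libraries in granulocyte genes: the 8 matched granulocyte markers summed to 7699 FPKM there, against 66.6 in KO and 48.8 in WT Lin- cells. The fraction comparison of the members and of the granulocyte markers is therefore also given without the Het pool.

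All 9 B lineage genes were higher in Gr1+Mac1+ than in Lin- cells in each of the 3 pools, by 7.85-fold (Blnk) to 44.9-fold (Vpreb3) in mean FPKM. Without the Het pool the range ran between 7.70-fold (Blnk) and 105.9-fold (Vpreb3), and Cd79a was 36.7-fold higher, against 21.9-fold over the 3 pools. Without the WT pool Vpreb1 was 23.2-fold higher, against 15.1-fold over the 3 pools, and Pax5 66.7-fold, against 43.8-fold. Blnk lay between 7.70-fold and 7.98-fold with any 1 pool left out. In no member did the values of the fractions overlap. The fractions were compared by limma on log2(FPKM + 1) with the pool as a block, over 11572 genes with a mean FPKM of at least 1, and all 9 passed a Benjamini-Hochberg adjusted p of 0.05. Of all genes tested, 30.3% were called higher in Gr1+Mac1+ cells by this test and 51.5% lower, and in 31.7% the Gr1+Mac1+ values lay above the Lin- values without overlap. The test called 3507 genes higher and 5957 lower, against 4400 and 4613 after each library was rescaled by its median ratio, with all 9 members still called higher. The members' log2 ratios ran between 2.43 and 4.91 with a median of 3.39, against a median of -0.33 over all genes tested. A log2 ratio of at least 2 together with a call, a level chosen after the values were seen, was reached by all 9 members and by 9.0% of all genes tested. Of the 9, 5 had a mean FPKM under 1 in Lin- cells and met the filter through their Gr1+Mac1+ level alone. The 3 pools are of different genotypes, so these p-values rest on the spread between unlike pools. In bulk RNA fewer cells of a type cannot be told apart from less RNA per cell. Lin- cells were depleted to uncommitted progenitors, and the part of that depletion in these ratios was not tested.

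**Figure D1:**
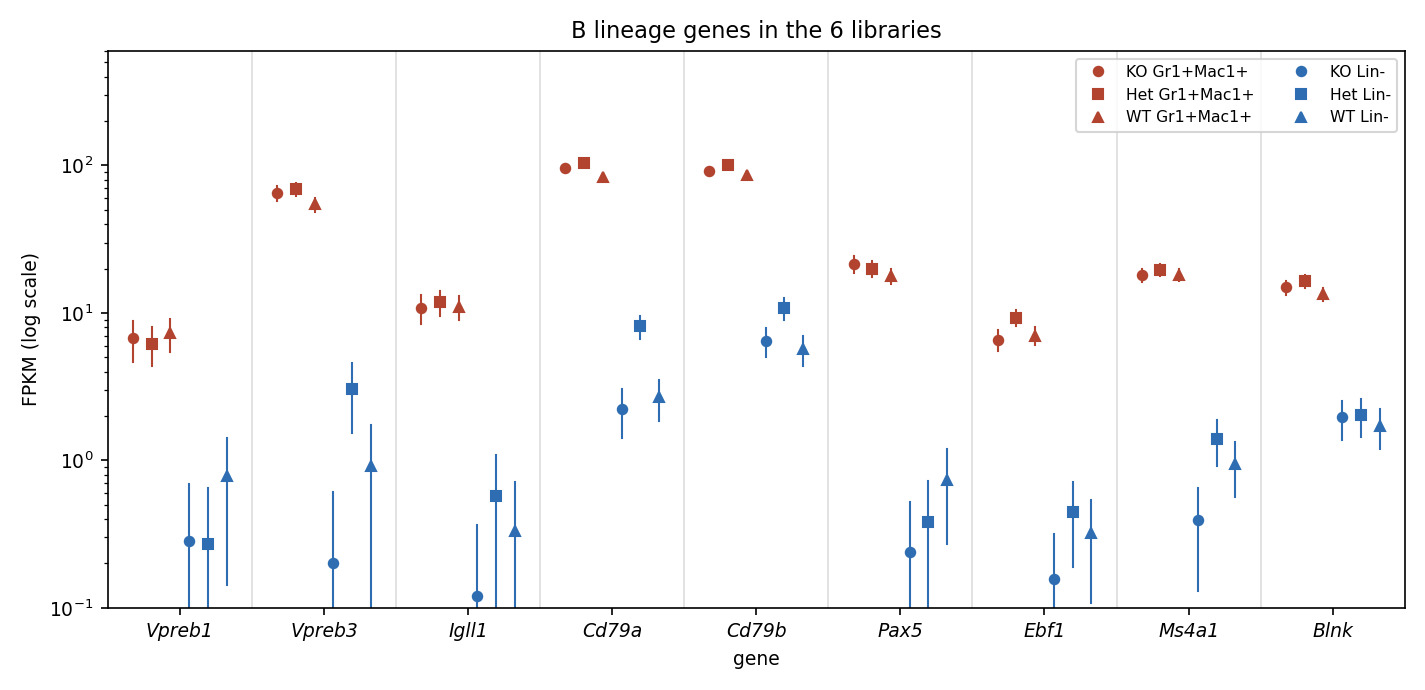
FPKM (log axis) of the 9 genes in the 6 libraries, with red symbols for Gr1+Mac1+ and blue symbols for Lin- cells, circles for KO, squares for Het and triangles for WT. Bars are the deposited intervals, cut at the lower edge of the axis (0.1) where they reach below it; the red symbols of every gene lie above its blue symbols, and Cd79a in Het Lin- cells (8.10) lies above Cd79a in KO (2.23) and WT (2.68) Lin- cells.

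Among the genes of the pre-B cell receptor, Vpreb1 had an FPKM of 6.71 in KO, 6.18 in Het and 7.30 in WT Gr1+Mac1+ cells, against 0.286 in KO, 0.271 in Het and 0.782 in WT Lin- cells. Its log2 ratio was 2.43 (SE 0.11, limma adjusted p = 0.000136). Igll1, the partner of Vpreb1 in the surrogate light chain, had 10.8 in KO, 11.8 in Het and 11.01 FPKM in WT Gr1+Mac1+ cells, against 0.121 in KO, 0.574 in Het and 0.331 in WT Lin- cells. Both were thus measured in every Gr1+Mac1+ library, while the Lin- levels rested on 2, 2 and 6 fragments for Vpreb1 and on 1, 5 and 3 fragments for Igll1 in KO, Het and WT. The log2 ratio of Igll1 was 3.20 (SE 0.11, limma adjusted p = 0.000124). The fragment numbers of Vpreb1 in Het and WT Gr1+Mac1+ cells came out at 47.5 and 63.5, not at whole numbers, and those of Igll1 came out whole within 0.05 in all 6 libraries.

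Vpreb3, a relative of Vpreb1 whose product associates with immunoglobulin chains inside precursor B cells, was the most abundant of Vpreb1, Vpreb3 and Igll1 in all 3 Gr1+Mac1+ libraries. Its FPKM was 64.8 in KO, 69.2 in Het and 54.4 in WT Gr1+Mac1+ cells, against 0.203 in KO, 3.07 in Het and 0.923 in WT Lin- cells. The Lin- levels stand for 1, 16 and 5 fragments. Vpreb3 had the largest log2 ratio between the fractions among the 9 members, 4.91 (SE 0.33, limma adjusted p = 0.000271), and also the largest standard error. Its log2 ratio was 5.77 in the KO pool, 4.11 in the Het pool and 4.85 in the WT pool.

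The 2 signalling chains of the B cell receptor were the most abundant members. Cd79a stood at an FPKM of 96.1 in KO (interval 90.6 to 101.6), 104 in Het (99.0 to 109) and 84.1 in WT (79.6 to 88.5) Gr1+Mac1+ cells. In Lin- cells it stood at 2.23 in KO (1.43 to 3.03), 8.10 in Het (6.61 to 9.58) and 2.68 in WT (1.84 to 3.52). The Het library was the highest of its fraction both times. Cd79b was at 91.2 in KO, 101.03 in Het and 86.02 in WT Gr1+Mac1+ cells, against 6.49 in KO, 10.8 in Het and 5.69 in WT Lin- cells. The mean of Cd79a was 94.8 ± 10.2 FPKM in Gr1+Mac1+ and 4.34 ± 3.27 FPKM in Lin- cells (SD, n = 3 pools), or 90.1 and 2.45 FPKM without the Het pool, and its log2 ratio was 4.32 (SE 0.28, limma adjusted p = 0.000252). That of Cd79b was 3.48 (SE 0.14, limma adjusted p = 0.000124). FPKM is per length, so the 2 genes can be set side by side: the level of Cd79a over that of Cd79b was 1.05 in KO, 1.03 in Het and 0.977 in WT Gr1+Mac1+ cells, and 0.343 in KO, 0.747 in Het and 0.471 in WT Lin- cells. The chains were thus near equal in the Gr1+Mac1+ libraries, and Cd79b was the higher of the pair in every Lin- library.

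Of the transcription factors, Pax5 was at an FPKM of 21.5 in KO, 19.96 in Het and 17.8 in WT Gr1+Mac1+ cells, against 0.241 in KO, 0.381 in Het and 0.732 in WT Lin- cells. Its log2 ratio was 3.85 (SE 0.17, limma adjusted p = 0.000126). Ebf1, which acts upstream of Pax5, was at 6.56 in KO, 9.28 in Het and 7.02 in WT Gr1+Mac1+ cells, against 0.158 in KO, 0.449 in Het and 0.324 in WT Lin- cells, with a log2 ratio of 2.71 (SE 0.10, limma adjusted p = 0.000124). Pax5 was the more abundant of the 2 in each Gr1+Mac1+ library, by 3.28-fold in KO, 2.15-fold in Het and 2.53-fold in WT. In Lin- cells both rested on 3 to 12 fragments per library.

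Ms4a1 had an FPKM of 18.1 in KO, 19.7 in Het and 18.2 in WT Gr1+Mac1+ cells, against 0.392 in KO, 1.40 in Het and 0.952 in WT Lin- cells. Its Gr1+Mac1+ values varied little between the pools, and its log2 ratio was 3.39 (SE 0.16, limma adjusted p = 0.000132). The adaptor gene Blnk had 14.9 in KO, 16.4 in Het and 13.4 FPKM in WT Gr1+Mac1+ cells, against 1.96 in KO, 2.02 in Het and 1.71 in WT Lin- cells. Blnk thus had the smallest ratio of means and a Lin- level that was nearly the same in the 3 pools, with a log2 ratio of 2.45 (SE 0.08, limma adjusted p = 0.000124).

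In order of mean FPKM in Gr1+Mac1+ cells the members ran Cd79a, Cd79b, Vpreb3, Pax5, Ms4a1, Blnk, Igll1, Ebf1 and Vpreb1. The ranges over the pools overlapped between Cd79a and Cd79b, between Pax5 and Ms4a1 and between Ebf1 and Vpreb1, and the other neighbours did not overlap. In Lin- cells the order was Cd79b, Cd79a, Blnk, Vpreb3, Ms4a1, Pax5, Vpreb1, Igll1 and Ebf1, and only Cd79a and Blnk, of all neighbours, did not overlap. The sum of the 9 members was 331 FPKM in KO, 358 in Het and 299 in WT Gr1+Mac1+ cells, against 12.1 in KO, 27.1 in Het and 14.1 in WT Lin- cells. Set against Ms4a1, the summed level of Vpreb1 and Igll1 was 0.967 in KO, 0.913 in Het and 1.01 in WT Gr1+Mac1+ cells. The levels of the surrogate light chain pair and of the later marker were thus in nearly the same proportion in the Gr1+Mac1+ libraries of the 3 genotypes.

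The other genes of the lineage were taken from 4 lists, and their calls went beyond 1 direction. Among 6 precursor B cell genes, 5 could be tested, and 4 were higher in Gr1+Mac1+ cells and none lower. Of all genes tested, 30.3% were called higher and 51.5% lower. The recombinase gene Rag1 had an FPKM of 6.64 in KO, 8.12 in Het and 5.03 in WT Gr1+Mac1+ cells, against 0.399 in KO, 0.497 in Het and 0.148 in WT Lin- cells, a log2 ratio of 2.48. Vpreb2 was at 3.52 in KO, 4.08 in Het and 4.18 in WT Gr1+Mac1+ cells, and in Lin- cells it was listed at 0 in KO and Het and at 0.327 in WT. Il7r, the interleukin-7 receptor chain that precursor B cells need, had a log2 ratio of 1.05, and Lef1 one of 0.83. Dntt, which adds bases at the joints of rearranging genes, ran the other way without passing (log2 ratio -0.87, SE 0.33, limma adjusted p = 0.0630): its FPKM was 5.90 in KO, 9.36 in Het and 8.73 in WT Gr1+Mac1+ cells, against 23.2 in KO, 11.7 in Het and 12.7 in WT Lin- cells. Without the KO pool the log2 ratio was -0.40 (limma adjusted p = 0.0419). Without the Het pool it was -1.15 (limma adjusted p = 0.0455), and without the pool block Dntt passed as lower (limma adjusted p = 0.0246). Dntt is also known from early lymphoid progenitors before commitment.

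Of 9 regulators of the lineage, 6 were higher and 3 lower in Gr1+Mac1+ cells, where 30.3% of all genes were called higher and 51.5% lower. Spib had the largest log2 ratio, 3.94, followed by Pou2af1, a coactivator of octamer-binding factors, at 3.57 and Ikzf3 at 2.55. The 3 lower genes were Bcl11a at -2.36, Tcf3, which encodes the E2A factors, at -1.38 and Ikzf1 at -0.42, all known from progenitors as well as B cells. Bcl11a was at 10.07 FPKM in KO, 9.78 in Het and 10.6 in WT Gr1+Mac1+ cells, against 58.04 in KO, 53.8 in Het and 56.5 in WT Lin- cells. After rescaling each library by its median ratio, Ikzf1 no longer passed (log2 ratio -0.08, limma adjusted p = 0.265).

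Of 15 B cell surface genes, 14 could be tested and 13 were higher in Gr1+Mac1+ cells, none lower. For this list and the signalling list below, the shares over all genes were 30.3% higher and 51.5% lower. Ly6d, a surface protein that appears on lymphoid progenitors turning to the B lineage, was at 85.1 FPKM in KO, 89.7 in Het and 78.2 in WT Gr1+Mac1+ cells, against 3.31 in KO, 5.34 in Het and 2.11 in WT Lin- cells. Its log2 ratio was 4.28, with Fcrla at 3.60 and Faim3 at 2.82. The abundant Cd24a, which granulocytes and red cell precursors also carry, had a log2 ratio of 0.20 and did not pass, but it was called higher at 0.54 after rescaling (limma adjusted p = 0.0104) and at 0.33 without the Het pool (limma adjusted p = 0.0353). Of 16 genes of B cell receptor signalling, 14 were higher and 1, Dapp1 at -0.49, lower (Dapp1 is named here after its value was seen). Dok3 led with 4.29, then Prkcb with 4.14, Pik3ap1 with 3.44 and Bank1 with 2.84. Many of these signalling genes, Syk at 2.42 and Ptpn6 at 1.87 among them, also work in myeloid cells. The list medians were 1.05 for precursor genes, 1.70 for regulators, 2.505 for surface genes and 2.15 for signalling genes. Precursor genes summed to 24.2 to 29.0 FPKM in Gr1+Mac1+ cells, overlapping the 14.4 to 26.2 of Lin- cells. Regulators summed to 186 to 214 in Gr1+Mac1+ cells, against a higher 232 to 238 in Lin- cells. Surface genes summed to 944 to 1019, against 504 to 575, and signalling genes to 896 to 958, against 242 to 277.

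Markers of other cell types were tested in the same way, beside the 30.3% of all genes that were called higher and the 51.5% called lower. The 8 granulocyte markers were all higher in Gr1+Mac1+ cells (summed FPKM 130620 to 158530, against 48.8 to 7699 in Lin- cells), as were all 7 monocyte markers (485 to 515, against 36.6 to 60.6). All 6 NK cell markers tested were higher (summed FPKM over the 7 matched 167 to 190.2, against 28.8 to 36.8), 6 of 7 tested plasmacytoid dendritic cell markers were higher (summed over 8, 93.2 to 103.7 against 58.7 to 62.0) and 4 of 5 tested plasma cell markers (summed over 7, 105 to 125 against 23.8 to 35.5). Of 10 T cell markers 4 were higher, near the share of all genes, and 1 was lower, and their summed FPKM overlapped between the fractions (40.5 to 46.3, against 29.04 to 47.4). The number of T cell markers called higher was 3 without the KO pool, 3 without the Het pool and 6 without the WT pool. Without the Het pool the granulocyte median log2 ratio was 10.9, against 8.59 over the 3 pools. Within a list the levels differed widely. Of the plasma cell genes, Xbp1 was at 53.1 to 62.4 FPKM in Gr1+Mac1+ cells, Igj at 21.5 to 46.2 and Irf4 at 5.46 to 8.06, while Tnfrsf17 was at 0.121 to 0.579 and was listed at 0 in KO and WT Lin- cells. Of the plasmacytoid dendritic cell genes, Siglech was at 12.8 to 14.6 FPKM in Gr1+Mac1+ and 0.270 to 0.941 in Lin- cells, Ccr9 was at 1.67 to 2.27 in Gr1+Mac1+ and 0.402 to 0.927 in Lin- cells, and Tcf4 had a log2 ratio of -0.20 and did not pass. Tnfrsf17 and Ccr9 are named after their values were seen. Megakaryocyte markers (6 of 6), stem and progenitor markers (5 of 7) and erythroid markers (5 of 7, with Alas2 higher) were lower in Gr1+Mac1+ cells. The part of any of these cell types in the levels of the 9 members was not tested.

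**Figure D2:**
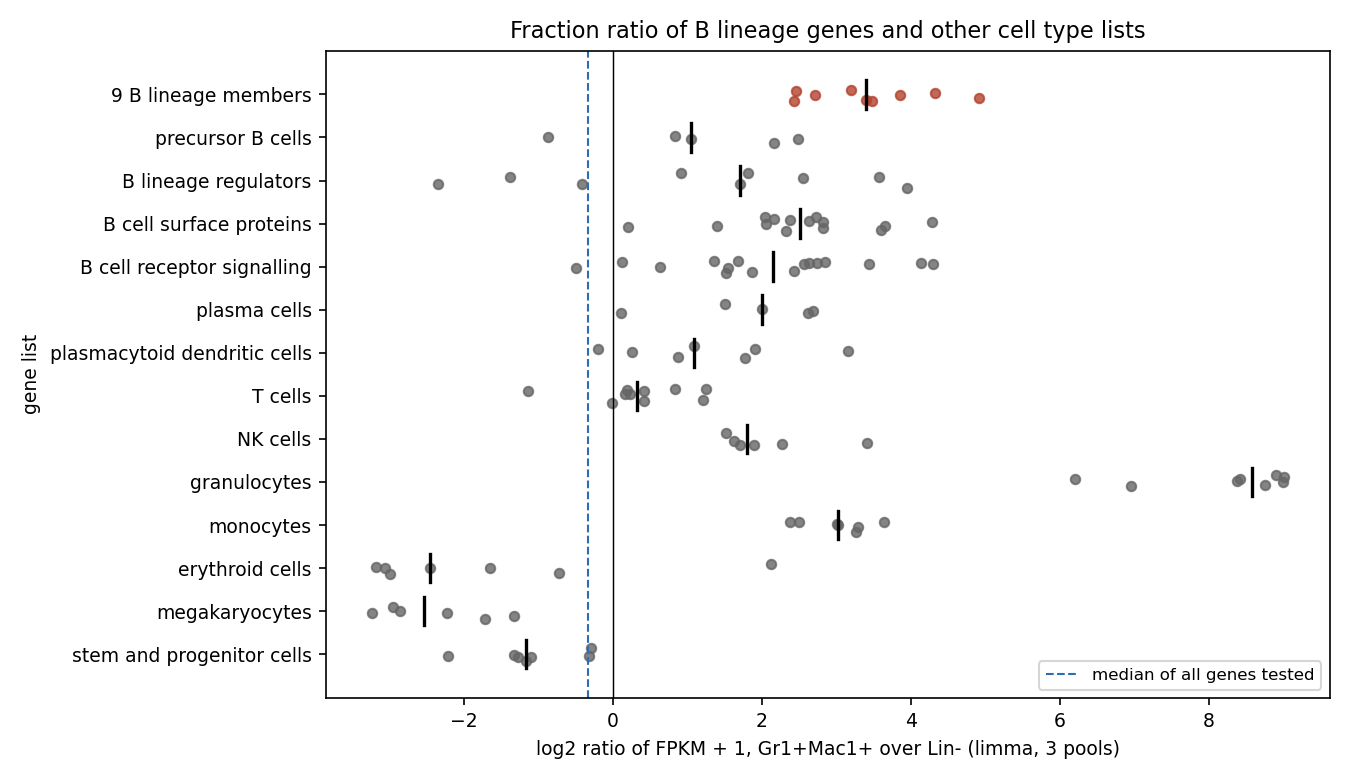
Log2 ratio of FPKM + 1 in Gr1+Mac1+ over Lin- cells for each tested gene (points) of the 9 members and 13 other lists, with list medians as black bars and the median of all genes tested (-0.33) as a dashed line. The members lie between 2.43 and 4.91, below the 8 granulocyte markers, whose median is 8.59, and above every stem and progenitor marker. They overlap the monocyte markers, whose median is 3.02, and genes of the NK cell, plasma cell, plasmacytoid dendritic cell and B lineage lists. Vertical scatter within a row has no meaning.

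Within the Gr1+Mac1+ fraction no member passed the rule of size between genotypes. To pass, FPKM + 1 had to differ 2-fold or more, the larger FPKM had to reach 5, the deposited intervals had to lie apart, and both values needed the status OK. It replaces a test, because 1 library per group allows none. In KO against WT Gr1+Mac1+ cells the rule called 0.0599% of 8353 genes higher and 0.132% lower. The members' log2 ratios ran between -0.11 (Vpreb1) and 0.26 (Pax5), with a median of 0.08 against 0.01 over all 11300 genes of mean FPKM of at least 1, and 5 of 9 were positive. Only Cd79a had intervals that did not overlap (log2 ratio 0.19, counting SE 0.06), where 6.55% of the genes at this level were higher in KO without overlap and 6.33% were lower. Set against the same WT library, Het Gr1+Mac1+ cells had positive log2 ratios for 8 of 9 members, the exception being Vpreb1 at -0.21, and the median was 0.23 against -0.001 over all genes. Intervals did not overlap for 5 of them, Ebf1 (log2 ratio 0.36, counting SE 0.12), Vpreb3 (0.34), Cd79a (0.31), Blnk (0.27) and Cd79b (0.23), where 9.99% of genes were higher in Het without overlap and 10.3% lower. The rule of size called 0.048% of genes higher and 0.132% lower in this comparison. In KO against Het Gr1+Mac1+ cells, where the rule called 0.0838% of genes higher and 0.0958% lower, the median of the members was -0.11 and Ebf1 alone had intervals apart (-0.44, counting SE 0.13), where 10.8% of genes were lower in KO without overlap and 12.1% higher. The intervals cover counting error only, not the spread between mice, and 1 WT library cannot show whether differences of this size lie beyond that spread.

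In Lin- cells 1 member, Cd79a, passed the rule of size between Het and WT. The log2 ratios of Het over WT were positive for 7 of the 9, but intervals lay apart for Cd79a and Cd79b alone. Cd79a was higher in Het than in WT Lin- cells by a log2 ratio of 1.31 (counting SE 0.20), one of 2 members that reached an FPKM of 5 in that comparison, where the rule called 1.7% of 8369 genes higher and 0.0836% lower. Cd79b was the other, at 0.82 (counting SE 0.18) with intervals apart, where 8.59% of genes at this level were higher in Het without overlap and 7.78% lower. Below an FPKM of 5, Vpreb3 stood at 1.08, on 16 fragments in Het and 5 in WT. The remaining log2 ratios of Het over WT Lin- cells lay between -0.49 (Vpreb1) and 0.30 (Ms4a1), and the median of the 9 was 0.24, against 0.0004 over all genes. Those of Igll1 (0.24, counting SE 0.31), Ebf1 (0.13, counting SE 0.17) and Blnk (0.16, counting SE 0.19) were smaller than their counting error. Cd79a did not pass with a pseudocount of 5, where its log2 ratio was 0.77, or with a 3-fold limit. In KO against WT Lin- cells no member passed, where 0.182% of 8262 genes were called higher and 0.0484% lower. There 7 of 9 log2 ratios were negative, the median was -0.25, the lowest were Vpreb3 at -0.68 and Ms4a1 at -0.49, and no member's intervals lay apart, where 7.02% of genes were higher in KO without overlap and 9.36% lower. Only Cd79b reached an FPKM of 5 there, the level of the genes in these shares. In KO against Het Lin- cells Cd79a was lower by -1.50 (counting SE 0.21), where 1.52% of 8375 genes were called lower and 0.119% higher, and Cd79b was at -0.66. Intervals lay apart for 4 members, Cd79a, Cd79b, Vpreb3 (-1.76) and Ms4a1 (-0.79), and Vpreb3 and Ms4a1 were under an FPKM of 5. Of genes that reached an FPKM of 5, which leaves out Vpreb3 and Ms4a1, 7.57% were lower in KO without overlap and 4.27% higher.

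**Figure D3:**
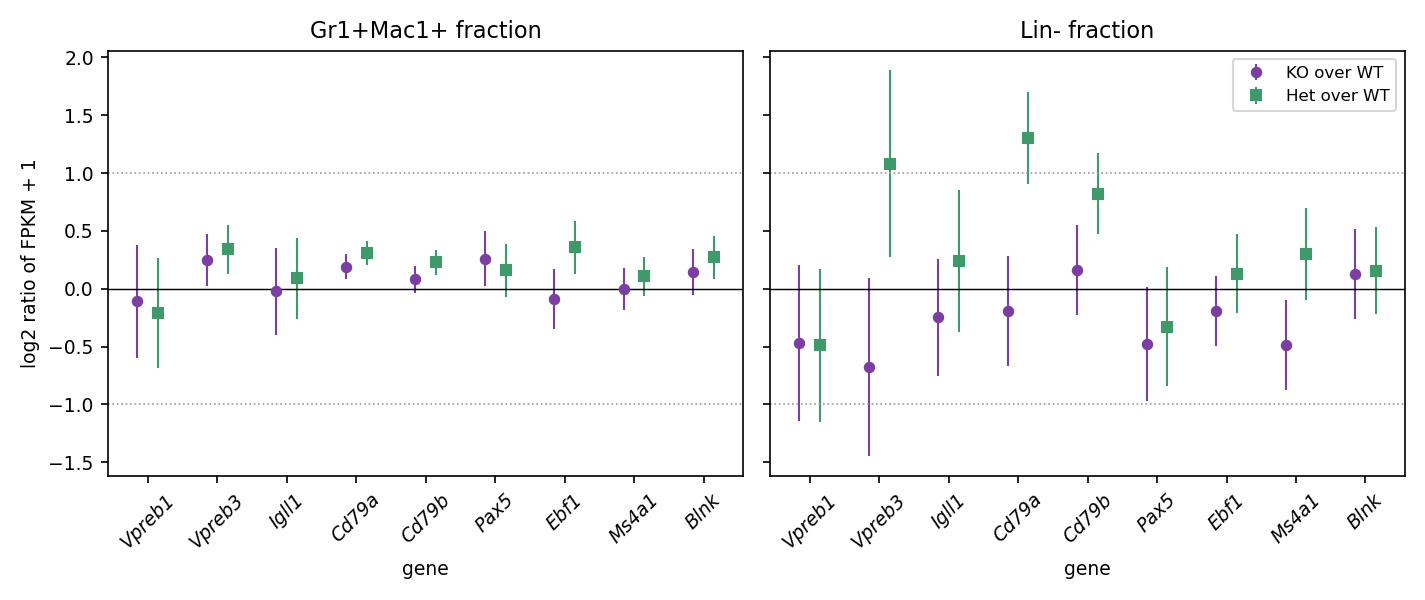
Log2 ratio of FPKM + 1 for KO over WT (circles) and Het over WT (squares) in Gr1+Mac1+ (left) and Lin- cells (right), with bars for the 95% counting interval and dotted lines at 2-fold. Ratios in Gr1+Mac1+ cells lie between -0.21 and 0.36; in Lin- cells Cd79a (1.31) and Vpreb3 (1.08) of Het over WT lie above the upper dotted line.

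The granulocyte genes were also highest in the Het library among Lin- cells. All 8 matched granulocyte markers passed the rule as higher in Het against WT Lin- cells, with a median log2 ratio of 6.91. As a share of the level in the Gr1+Mac1+ library of the same pool, their sum was 0.0420% in KO, 5.89% in Het and 0.0349% in WT, and in Het the 8 genes lay between 5.32% (Camp) and 6.83% (Retnlg). The sum of the 9 B lineage members, in the same terms, was 3.65% in KO, 7.58% in Het and 4.72% in WT. For Cd79a the share was 2.32% in KO, 7.77% in Het and 3.19% in WT, and for Blnk it was 13.2% in KO, 12.3% in Het and 12.8% in WT. Pax5 was at 1.12% in KO, 1.91% in Het and 4.12% in WT, so its share was lower in Het than in WT. Its Lin- levels rested on 5 fragments in Het and 10 in WT, and their intervals overlapped. The share of Vpreb1 was also lower in Het (4.38%) than in WT (10.7%), on 2 and 6 Lin- fragments, as was that of Blnk. Those of Vpreb3, Igll1, Cd79a, Cd79b, Ebf1 and Ms4a1 were higher in Het than in WT. Across members the median share was 2.32% in KO, 4.87% in Het and 4.61% in WT. The part of the granulocyte genes' shift in the level of Cd79a in Het Lin- cells was not tested. Without the Het pool, the fraction comparison still called all 9 members higher in Gr1+Mac1+ cells, with log2 ratios between 2.40 and 5.31.

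**Figure D4:**
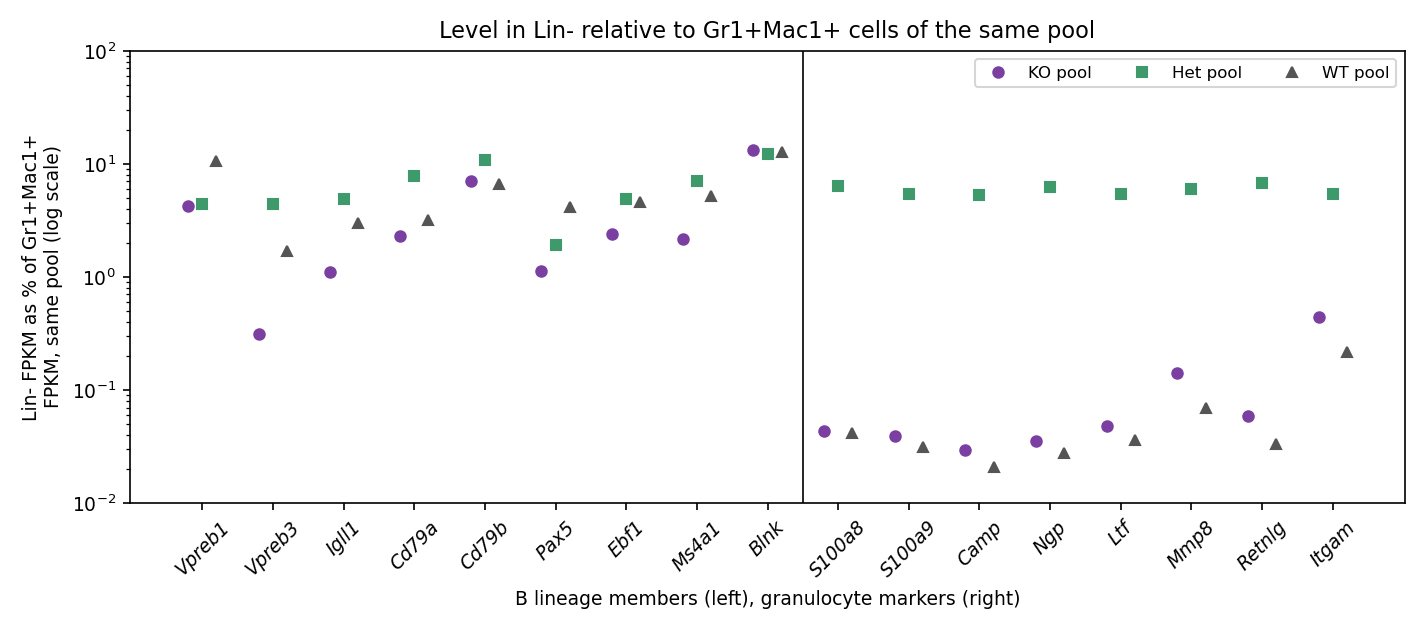
FPKM in Lin- cells as a percent of the FPKM in Gr1+Mac1+ cells of the same pool (log axis), for the 9 members left of the line and 8 granulocyte markers right of it, with circles for KO, squares for Het and triangles for WT. Granulocyte markers lie at 5.32% to 6.83% in Het and at most at 0.446% in KO and WT, while the members of all pools lie between 0.313% and 13.2%.

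Among other B lineage genes in Lin- cells, Ly6d was higher in Het than in WT (FPKM 5.34 in Het and 2.11 in WT), and Dok3, which myeloid cells also use, was higher in Het than in WT and lower in KO than in Het (3.24 in KO, 8.77 in Het and 2.35 in WT). In Gr1+Mac1+ cells Igj, the joining chain of secreted immunoglobulin, was lower in Het than in WT: its FPKM was 29.7 in KO, 21.5 in Het and 46.2 in WT. No other gene of the 4 B lineage lists or the plasma cell list passed the rule of size in any of the 6 genotype comparisons.

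The genes with the most similar profiles were looked up for 3 members, Cd79a, Vpreb1 and Ms4a1. Of the 15 neighbours named, Vpreb2 and Pou2af1 were in the B lineage lists and 13 were in none. All the other lists together hold only 114 symbols, against 10237 genes compared, so a neighbour outside the lists is the usual case. Likeness was the distance between profiles of log2(FPKM + 1) over the 6 libraries, each centred on its own mean, among 10237 genes, with unnamed symbols passed over. Nearest to Cd79a were Alox5 (distance 0.144), Niacr1, Cd300ld, Thbs1 and Sema4a, none of them in the lists used. Alox5, a lipoxygenase of leukotriene synthesis, was at 89.4 FPKM in KO, 89.3 in Het and 82.7 in WT Gr1+Mac1+ cells, against 1.97 in KO, 7.23 in Het and 2.35 in WT Lin- cells. For Vpreb1 the nearest were Ms4a6b (0.282), Evl, Ttc39c, Ccl5 and its copy Vpreb2, and for Ms4a1 they were Rgs14 (0.222), Tmem50b, Adam19, Pou2af1 and Tnf. Among the members, the closest pair was Igll1 and Ms4a1, at 0.328, and the farthest was Vpreb1 and Vpreb3, at 3.35. With 6 libraries in 2 fractions, such likeness is a description of levels.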

How the data were processed

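RNA of 2 bone marrow fractions from KO, Het and WT mice was sequenced, 1 library per group and 4 pooled mice per library. Per the file headers, the authors deposited FPKM per locus, each with an interval and a status. TopHat2 2.0.7, Cufflinks 2.0.2 and the build mm10 are named, per the submitters' processing notes; what each tool did, and with which annotation, is not stated in the labels or file headers. The files hold no counts, so depth was read from the bounds. An interval was taken as 2 SD to each side, which gives the fragment number as the squared ratio of FPKM to SD. Among values under 50 fragments 63.0% to 64.1% came out whole within 0.05. The members rested on 43 to 1595 fragments in Gr1+Mac1+ and 1 to 141 in Lin- libraries, and intervals cover counting error only. FPKM divides by the library total, and the 10 most abundant genes held 25.1% to 27.8% of summed FPKM in Gr1+Mac1+ and 8.72% to 10.5% in Lin- libraries.

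Gr1+Mac1+ was set against Lin- by limma (version 3.58.1, in R 4.3.3) with a mean-variance trend, using log2(FPKM + 1) of 11572 genes of mean FPKM of at least 1, with Benjamini-Hochberg adjustment over all of them. The pool was the block, because the labels' protocols take the 2 fractions out of 1 marrow pool. No p-value was computed between genotypes. The limma step was tested on simulated data with equal noise in all genes and no pool differences. That test therefore does not cover genes of few fragments or a library that stands apart. Of 114 symbols in 13 other lists, 113 matched 1 locus, 3 of them by an older symbol; Ly6g was not analysed here. The values of 1 surface gene are not reported here. The members and lists were chosen with earlier results of these data known. Named genes are the 9 members, up to 4 called genes with the largest ratio and up to 3 abundant genes per list, genes past the rule of size, and the 5 genes nearest in profile to Cd79a, Vpreb1 and Ms4a1, passing over unnamed symbols. Promoters are from RefSeq (GRCm38.p6), loci and transcripts from GENCODE vM21. The remaining steps ran in Python 3.11.15 (pandas 2.3.3, numpy 2.4.6, Biopython 1.88, matplotlib 3.10.9).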

Additional observations from a re-analysis of the deposited data

How the results depend on the processing

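The 9 members were higher in Gr1+Mac1+ cells in every setting that tested them: pseudocounts of 0.1 and 5, no filter on low values, rescaling by the median ratio, no prior trend, no replicate block (9 of 9) and leaving out each pool (9 to 9). At a mean FPKM of at least 5 only 7 members could be tested and all 7 were called. Over these settings the smallest member ratio was 1.11 and the largest 5.98 on the log2 scale. Rescaling moved the median of all genes from -0.33 to -0.03 and the split of all calls from 3507 higher and 5957 lower to 4400 and 4613. The members' log2 ratios were then 2.62 to 5.15. Among list genes outside the 9, Ikzf1, Cd24a, Dntt, Thy1, Cd34 and Bst2 changed side of the threshold in at least 1 setting. With a pseudocount of 5 the log2 ratio of Cd79a in KO over Het Lin- cells was -0.86.

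Between genotypes, counts of members changed only in Lin- cells. The number higher in Het against WT was 1 (Cd79a), 0 with a pseudocount of 5 and with a 3-fold limit, and 2 with a 1.5-fold limit, which added Cd79b. The number lower in KO against Het was 1 (Cd79a), 0 with a pseudocount of 5 and with a 3-fold limit, 2 with a 1.5-fold limit (Cd79b added) and 2 with a minimum FPKM of 1 (Vpreb3 added). Depth limits the Lin- levels most, where 1 to 16 fragments stand behind Vpreb1, Vpreb3, Igll1, Pax5 and Ebf1. The ratios of means without each pool were added after the data were seen.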
